A study of Mus musculus with 6 samples.

Results

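The abundant long noncoding RNA genes described here are the genes that the deposited table types as lncRNA and whose mean over the 6 libraries reached 10 TPM (a unit that counts transcripts, corrected for their length, as a share of the library). The imprinted genes H19, Meg3, Rian, Mirg, Kcnq1ot1, Airn and Nespas, the snoRNA host gene Gas5 and all Snhg genes were left out by name. The rule selected 50 of the 9959 lncRNA gene IDs, in a table of 55471 gene IDs, and 10 further genes at the minimum (Gas5 and 9 Snhg genes) were among those left out. The members were therefore chosen by their level in these libraries, and their levels are given as a description. The induction itself was not used to choose them, although a gene that is high in only 1 group can reach the minimum through that group.

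The libraries were total RNA from haematopoietic stem cells sorted as Lin- Kit+ Sca1+ CD48- CD150+. All 6 came from mice of the ETV6-RUNX1 genotype, which carry an inducible copy of the leukaemia fusion. The uninduced group (n = 3) received no doxycycline, and the induced group (n = 3) received it in food for 2 weeks. The study asked how the fusion changes these stem cells. Strain, age and the driver of the transgene are not given in the sources used here, and nothing states that the libraries are separate animals, so p-values measure only the spread between these libraries. No doxycycline-treated mice without the fusion were analysed here, so fusion and drug cannot be told apart.

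Long noncoding RNAs are transcripts without a long reading frame, made mostly by RNA polymerase II and often kept in the nucleus. Some build nuclear bodies: Malat1 gathers in speckles, where splicing factors are stored, and Neat1 is the scaffold of paraspeckles, which hold RNA-binding proteins. Others are spliced host transcripts whose introns release snoRNAs, the guides of RNA modification, or run antisense to coding genes. Total RNA libraries also capture short stable RNAs and ribosomal RNA, and lncRNA annotations can lie over either.

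Some members were such annotations, and 3 of the sequences they share with a short RNA gene are shown first. For Gm50278 and Gm29362 the value moved when the overlapping rows were merged, while for Gm12238 it hardly did (log2 change -0.15 unmerged and -0.14 merged). In GENCODE M21 (GRCm38), 6 members had at least 50% of their exon bases under another noncoding gene of the same strand. Gm50278 (chr12:80391614-80391737, minus strand, inside an intron of Dcaf5) lies wholly within Scarna3b, a small Cajal body RNA at chr12:80391613-80391751. Gm12238 (chr11:55482706-55482829, plus strand, inside an intron of G3bp1) lies wholly within the snoRNA gene Gm22884 at chr11:55482694-55482833. Gm29362 (chr12:87437684-87437816, minus strand, inside an intron of Alkbh1) lies wholly within Gm50450, a snoRNA gene at chr12:87437682-87437817. Below are the short RNA transcripts from GENCODE M21, with the bases that the lncRNA gene also claims in capitals.
Scarna3b: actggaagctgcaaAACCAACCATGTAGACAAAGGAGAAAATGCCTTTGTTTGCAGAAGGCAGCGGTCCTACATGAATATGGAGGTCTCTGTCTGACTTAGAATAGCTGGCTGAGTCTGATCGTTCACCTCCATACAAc
Gm22884: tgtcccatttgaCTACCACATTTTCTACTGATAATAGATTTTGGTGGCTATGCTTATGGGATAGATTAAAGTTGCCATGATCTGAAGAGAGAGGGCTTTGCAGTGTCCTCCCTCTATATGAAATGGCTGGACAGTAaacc
Gm50450: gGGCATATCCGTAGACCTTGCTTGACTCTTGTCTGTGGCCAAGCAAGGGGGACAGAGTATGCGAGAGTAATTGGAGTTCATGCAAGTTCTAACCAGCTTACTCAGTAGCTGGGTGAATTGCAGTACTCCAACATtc

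Gm29362 also holds most of the hairpin of the microRNA gene Mir3068, 74 of 79 bases, which cover 55.6% of the exon bases of Gm29362. The transcript is repeated here with both mature arms in capitals, followed by the arms from RefSeq with the seed (bases 2 to 8) in capitals. The arms have different seeds.
Gm29362: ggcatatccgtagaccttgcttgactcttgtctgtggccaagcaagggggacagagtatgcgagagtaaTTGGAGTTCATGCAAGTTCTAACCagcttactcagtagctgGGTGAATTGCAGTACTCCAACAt
mmu-miR-3068-5p: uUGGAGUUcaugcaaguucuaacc
mmu-miR-3068-3p: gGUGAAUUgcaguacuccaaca

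Gm28967 (chr6:125186361-125186641, minus strand) lies wholly within Scarna10, another small Cajal body RNA, and 83.6% of its exon bases are also exon of Ncapd2, a condensin subunit gene. Rmrp has an lncRNA gene of 281 exon bases that shares 271 of them with a gene typed as ribozyme. AY036118 lies within a gene typed as rRNA. Of the 49 members found in M21, exon lengths ran from 124 to 20771 bases, and 8 members were under 300 bases. Gm41381 was the member not found in that release.

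Levels among the members were very uneven. The median member mean was 23.2 TPM and the highest 10911 TPM. The 3 highest members were Gm42418, Gm26917 and Gm28967, while 9 members had means of 100 TPM or more and 39 of less than 50 TPM. No member was listed at 0 in any library, and 32 reached 10 TPM in every library. Another 3 members lay below 10 TPM in the uninduced mean and 4 in the induced mean. Just inside the minimum were Gm36738 at 10.008 TPM, Gm20492 at 10.2 TPM and 5430416N02Rik at 11.4 TPM, and just outside were Gm15657 at 9.55 TPM, Gm46430 at 9.39 TPM and 2310015A10Rik at 9.23 TPM. Together the members held 2.86%, 3.11% and 3.04% of the TPM in the uninduced libraries and 2.13%, 1.89% and 2.03% in the induced libraries. The groups did not overlap in this share. Gm42418 and Gm26917 made up 76.3% to 88.5% of it, and without the 3 members on the list of ribosomal repeat loci (Gm42418, AY036118 and Gm26917, the last listed by name, with no annotated rRNA gene over it) the share was 0.482%, 0.347% and 0.404% in uninduced and 0.495%, 0.409% and 0.471% in induced libraries, which overlap.

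Facts of the libraries bear on every change below. The median log2 change of all 13470 tested genes was -0.35, and nuclear protein-coding genes held 26.6% to 32.9% of the uninduced TPM and 20.5% to 23.2% of the induced TPM. Values after median-of-ratios scaling, which brings that median to 0.0032, are therefore given beside the deposited scale for many of the changes. A change printed without a scaled value is on the deposited scale only. Stem cell markers were present in every library, with a summed level of 517 to 712 TPM in uninduced and 575 to 627 TPM in induced libraries, and 3 of 12 were higher and 3 lower. Erythroid markers, of which 7 of 9 tested (12 listed) were higher, summed to 57.2 to 62.9 TPM and 419 to 482 TPM. Proliferation markers, of which 9 of 10 were lower, summed to 363 to 426 TPM and 77.9 to 109 TPM. For the megakaryocyte list, 2 of 6 tested were higher and 1 lower (103 to 139 and 120 to 131 TPM), for the myeloid list 1 of 8 was higher and 1 lower (280 to 330 and 260 to 307 TPM), and of 3 tested endothelial and stromal genes none passed (11.2 to 14.8 and 10.7 to 12.1 TPM). After scaling 4 stem cell markers were higher and 1 lower, 2 megakaryocyte markers higher and 0 lower, and 2 myeloid markers higher and 0 lower, while the counts of the other marker lists stayed as they were. Of 12 lymphoid markers 10, among them Pax5 and Cd3e, were at 0 in every library, and the list summed to 10.4 to 25.7 and 3.11 to 3.85 TPM. Of its 2 tested genes 1 was lower, the cytotoxic granule gene Nkg7, at 6.21, 15.8 and 5.84 TPM in uninduced and listed at 0 in all induced libraries (limma adjusted p 0.00378). The part of these marker shifts in the lncRNA changes was not tested, and in bulk RNA a change in the mix of cells and a change of RNA per cell cannot be told apart.

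At a limma adjusted p under 0.05, 6 of the 50 members were higher with induction and 6 lower, or 12% in each direction. These counts include Gm35551, higher, and 5033406O09Rik, lower, whose means reached 10 TPM only in the group where they were high, and a call in that direction is partly built into their choice. Of the 43 members at 10 TPM or more in both group means, 5 were higher and 5 lower. Of all tested genes 11.5% passed, 1.29% upward and 10.2% downward. Of the 6275 tested genes that reach the members' minimum of 10 TPM, 17.8% passed, 1.43% upward and 16.3% downward. With the libraries scaled by median of ratios, 8 members passed upward (16%) and 2 downward (4%). On that scale 5.98% of all genes passed (2.88% upward, 3.1% downward), and 9.21% of genes at 10 TPM or more (4.49% and 4.72%). All 6 higher members and 2 of the 6 lower members passed on both scales. The groups did not overlap for 11 members that were higher (22%, against 4.83% of all genes and 4.78% of those at 10 TPM or more) and for 8 that were lower (16%, against 28.2% and 37.4%). In either direction 33.1% of all genes had groups without overlap. Of all 558 tested genes of the lncRNA type 5.56% passed, 15 upward (2.69%) and 16 downward (2.87%).

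The members' median log2 change was -0.13, above the -0.35 of all tested genes and the -0.40 of genes at 10 TPM or more. On the scaled values it was 0.26, beside 0.0032 and -0.0082. Single changes ran from -2.95 to 2.46, and 32 of the 50 lay above the median of all genes. On the deposited scale 22 were positive, and after scaling 33 were. The sign of the members' median thus depends on the scaling, while none of the 12 called members changed sign.

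**Figure D1:**
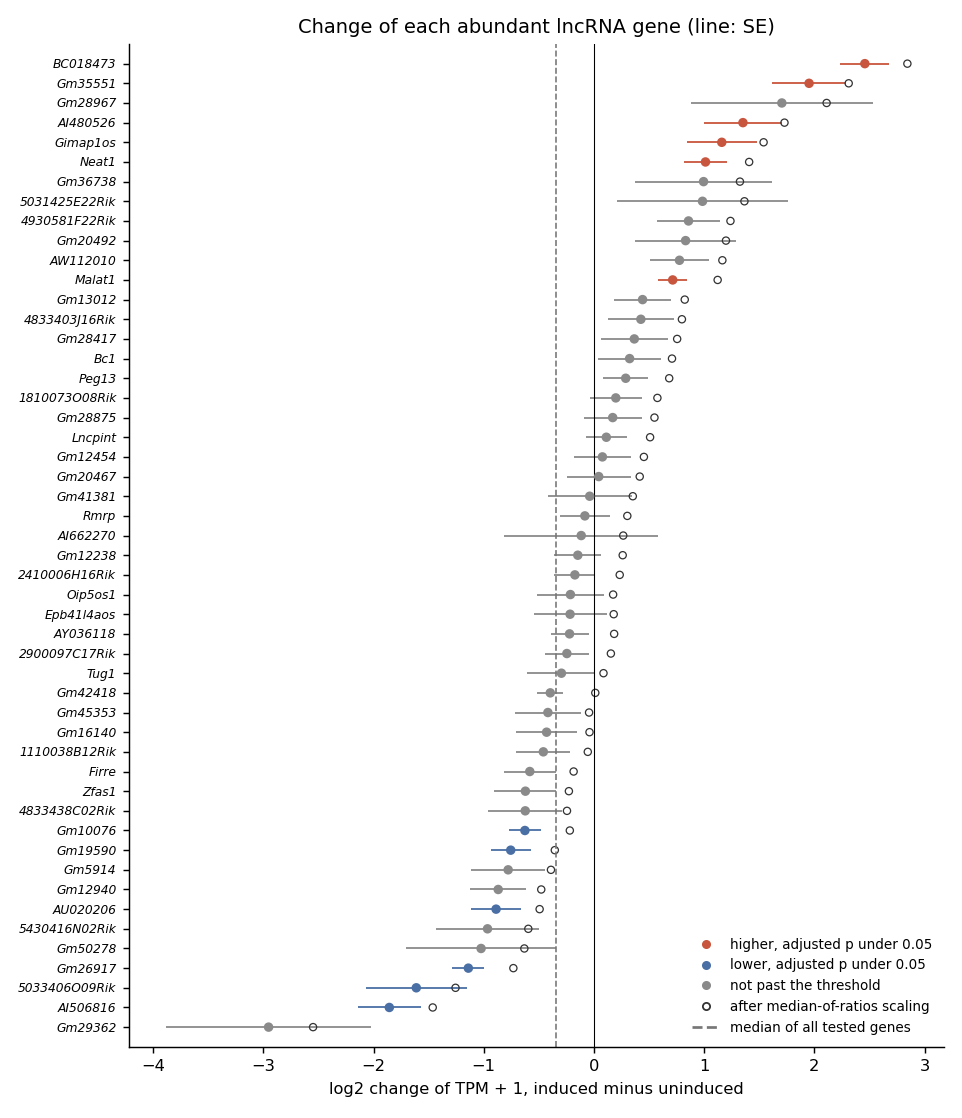
Log2 change of TPM + 1, induced minus uninduced, for each of the 50 members, with the standard error as a line and open circles for the value after median-of-ratios scaling. The 6 members past the threshold upward are red and the 6 downward blue, and the dashed line at -0.35 is the median of all tested genes.

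Both nuclear body RNAs, Malat1 and Neat1, rose with induction. Malat1 (ENSMUSG00000092341, chr19:5795690-5802672, minus strand), the speckle RNA, was at 732, 772 and 625 TPM in uninduced and 1159, 1102 and 1223 TPM in induced libraries. Neat1 (ENSMUSG00000092274, chr19:5824708-5845478, minus strand), the paraspeckle scaffold, was at 28.0, 27.7 and 21.7 TPM and then 52.9, 47.6 and 58.3 TPM. Every induced library lay above every uninduced library for both RNAs. Malat1 rose by 0.71 on the log2 scale (SE 0.13, limma adjusted p 0.00902), or 1.12 after scaling. Neat1 rose by 1.01 (SE 0.20, limma adjusted p 0.0123), or 1.41 after scaling. Malat1 passed without any single library, while Neat1 narrowly missed without induced replicate 1 (limma adjusted p 0.0512) or without induced replicate 3 (0.0516). Without a trend of variance on expression neither passed (limma adjusted p 0.101 for Malat1 and 0.0524 for Neat1). The ratio of Malat1 to Neat1, per length, was 26.1, 27.8 and 28.8 in uninduced and 21.9, 23.2 and 20.95 in induced libraries. Gm37376, a transcript opposite 453 bases of Malat1, was at 0.828, 0.367 and 0.981 TPM and then 3.89, 5.16 and 11.8 TPM (log2 change 2.09, limma adjusted p 0.0187, and up to 0.0688 without single libraries). The library kit keeps strand, but whether the deposited values were made with strand is not given in the sources used here, so these reads and those of Malat1 cannot be told apart.

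The other members of the list of chromatin and nuclear body RNAs did not pass. Of its 8 tested genes, 2 were higher and none lower, beside 1.29% and 10.2% of all tested genes. The median change was -0.15 (0.19 after scaling). Firre, an X-linked RNA that organises nuclear contacts, was at 47.0, 55.8 and 36.1 TPM and then 28.4, 25.5 and 37.6 TPM, with overlapping groups. Its log2 change was -0.58 (limma adjusted p 0.137; -0.18 and 0.614 after scaling). Tug1, a widely expressed RNA linked to p53, was at 16.4, 15.5 and 20.2 TPM and then 8.81, 14.9 and 20.2 TPM, again overlapping. 2900097C17Rik, named Norad in RefSeq and known for binding Pumilio proteins, was at 51.4, 51.4 and 41.7 TPM and then 44.7, 33.6 and 43.6 TPM. Its values are uncertain, because 2537 bases of it match Gm7292 at 99.2% identity. Oip5os1, or Cyrano, which directs decay of miR-7, was at 23.4, 23.3 and 13.01 TPM and then 22.9, 14.3 and 13.6 TPM. The log2 changes of Tug1, 2900097C17Rik and Oip5os1 were -0.30, -0.25 and -0.21, and 0.09, 0.15 and 0.17 after scaling, so the direction of each depends on the scaling.

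Genes of the proteins that these bodies hold were lower or did not pass. Of 20 paraspeckle and speckle protein genes none was higher and 9 were lower, with a median change of -0.76. Of all tested genes 10.2% were lower, 16.3% of those at 10 TPM or more, and the median of all was -0.35. Scaled by median of ratios, 3 were lower (Srsf3, Srsf7 and Hnrnpm) and the median was -0.36, beside 3.1% of all tested genes and 4.72% of those at 10 TPM or more. Sfpq, a core paraspeckle protein, was at 266, 271 and 193 TPM and then 117, 133 and 134 TPM (log2 change -0.91, limma adjusted p 0.0109), without overlap, but after scaling it was at -0.50 with an adjusted p of 0.061. Nono, its partner, was at 156, 161 and 119 TPM and then 80.3, 85.2 and 95.7 TPM (-0.73, limma adjusted p 0.0273; -0.32 and 0.188 after scaling). Srsf7, an SR splicing factor of speckles, was at 176, 178 and 149.9 TPM and then 83.3, 58.1 and 60.7 TPM (-1.32, limma adjusted p 0.00366), and stayed past the threshold after scaling (-0.91, adjusted p 0.0142). Of 21 tested genes of the nuclear exosome, which degrades nuclear RNA, 1 was lower (the nuclease Dis3, log2 change -1.28, limma adjusted p 0.0307) and after scaling none, with medians of -0.47 and -0.08. Leaving out single libraries took the limma adjusted p of Sfpq to 0.0519 (without induced replicate 1), of Nono to 0.0973 and of Dis3 to 0.113 at most, and that of Srsf7 to 0.0256.

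**Figure D2:**
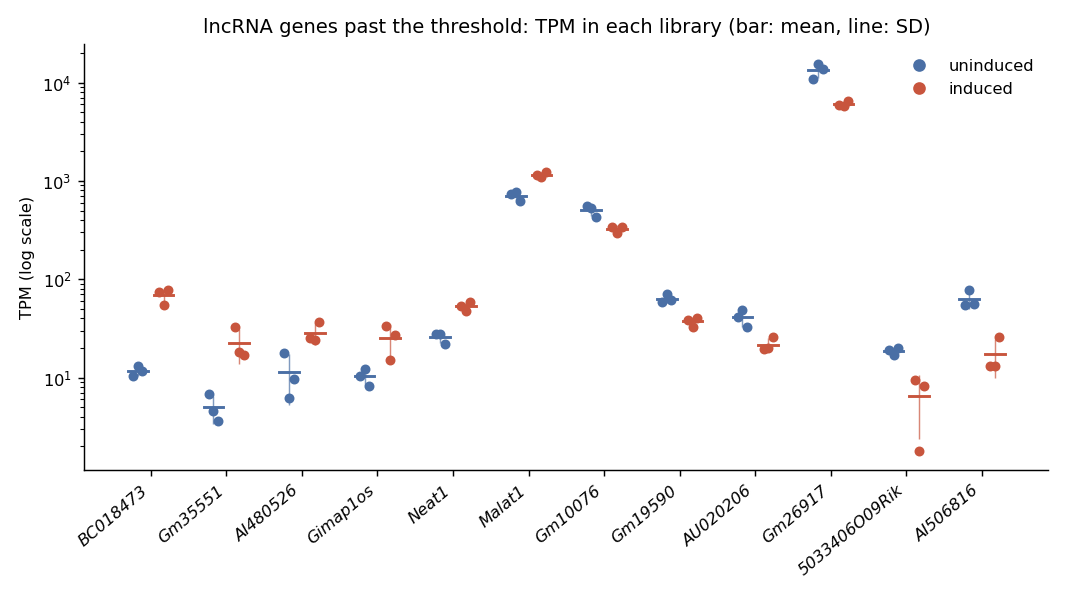
TPM on a log axis in each library for the 12 members past the threshold, with a bar for the group mean and a line for its SD (n = 3 each). The uninduced and induced points of each gene do not overlap, and BC018473 shows the widest upward gap, from 11.6 to 68.9 TPM.

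The largest rise was that of BC018473 (ENSMUSG00000056032, chr11:116752167-116759373, plus strand), a gene without an established role that lies 5652 bases from St6galnac1 on the other strand. It was at 10.3, 12.99 and 11.6 TPM in uninduced and 73.9, 54.4 and 78.5 TPM in induced libraries. The groups did not overlap, and the ratio of induced to uninduced means was 5.93. The log2 change was 2.46 (SE 0.22, limma adjusted p 0.000452), and 2.84 after scaling, and it passed without any single library. Gm35551 (ENSMUSG00000117446, chr17:84020663-84026019, minus strand), an uncharacterised intergenic gene, was at 6.73, 4.55 and 3.65 TPM and then 32.6, 18.2 and 16.9 TPM. It reached the 10 TPM minimum through the induced group, where its lowest library still exceeded the highest uninduced library. Its log2 change was 1.95 (SE 0.33, limma adjusted p 0.00684; 2.31 after scaling), also past the threshold without any single library.

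AI480526 (ENSMUSG00000090086, chr5:123133723-123141666, minus strand) starts near Setd1b, a histone H3K4 methyltransferase gene 527 bases away on the other strand. It was at 17.9, 6.24 and 9.74 TPM and then 25.1, 23.9 and 36.5 TPM, without overlap. Its log2 change of 1.35 (SE 0.35, limma adjusted p 0.0374; 1.73 after scaling) passed in only 1 of 6 fits that each leave out a library, the fit without uninduced replicate 1, and reached an adjusted p of 0.131 without induced replicate 3. It also missed without the low-value filter (limma adjusted p 0.128) and without a variance trend (0.0833). Setd1b itself was at -0.13 (adjusted p 0.767). M21 places 4932422M17Rik opposite 34.3% and Gm38102 opposite 32.3% of the exon bases of AI480526.

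Gimap1os (ENSMUSG00000044867, chr6:48738346-48741444, minus strand) runs opposite Gimap1, a GTPase gene of the lymphocyte survival family, over 35.7% of its exon bases. It was at 10.4, 12.2 and 8.26 TPM and then 33.6, 14.9 and 27.2 TPM. The groups were apart, although induced replicate 2 lay close to the uninduced range. The log2 change was 1.16 (SE 0.32, limma adjusted p 0.0443; 1.54 after scaling) and passed only without induced replicate 2 among the fits that leave out 1 library, with an adjusted p of up to 0.161. It missed without the low-value filter (limma adjusted p 0.126) and without a variance trend (0.0886). Gimap1 was at 22.2, 69.4 and 26.1 TPM and then 44.8, 29.7 and 57.5 TPM, which overlap (log2 change 0.30, limma adjusted p 0.67). Of 8 Gimap coding genes looked up, chosen after values were seen, 4 passed, all higher, beside 1.29% of all tested genes that were higher (2.88% after scaling). Gimap6 was at 139.5, 131 and 121 TPM and then 288, 279 and 311 TPM (1.16, limma adjusted p 0.00185; 1.56 after scaling), and passed without any single library. Gimap4 was at 2.14, 2.16 and 2.76 TPM and then 36.6, 51.6 and 32.2 TPM (3.59, limma adjusted p 0.000197; 3.92 after scaling), and also passed without any single library. Gimap8 (0.94, limma adjusted p 0.0187) and Gimap3 (1.99, limma adjusted p 0.0434) passed in 1 of the 6 fits that leave out a library, and both passed after scaling. Gimap7 (-0.47, limma adjusted p 0.603) and Gimap9 (0.04, 0.927) did not pass. 4833403J16Rik, a member 1128 bases from Gimap5, was at 8.88, 8.66 and 15.3 TPM and then 12.0, 14.03 and 18.3 TPM (0.43, adjusted p 0.393), and Gimap5 at 0.87 (limma adjusted p 0.0647, and 1.27 with 0.0173 after scaling).

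AW112010 and 4930581F22Rik did not pass on the deposited scale with all libraries, passed after median-of-ratios scaling, and are named after their values were seen. They also passed after rescaling to nuclear protein-coding genes (limma adjusted p 0.0468 and 0.0332), and AW112010 on the deposited scale without uninduced replicate 3 (0.0337). AW112010, an RNA known to be induced in inflamed immune cells, was at 15.0, 16.5 and 27.9 TPM and then 39.0, 29.7 and 32.1 TPM (log2 change 0.78, limma adjusted p 0.0895; 1.17 and 0.0495 after scaling). 4930581F22Rik, opposite parts of St3gal4 and Dcps, was at 15.1, 9.58 and 12.7 TPM and then 20.8, 18.1 and 32.4 TPM (0.86 and 0.0825; 1.24 and 0.0325 after scaling). Both were without overlap between groups on the deposited scale.

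Of the members that fell, AI506816 and Gm26917 passed on both scales. AI506816 (ENSMUSG00000105987, chr5:23698296-23712667, minus strand), a noncoding transcript with a snoRNA gene in an intron, was at 54.7, 77.8 and 55.8 TPM in uninduced and 13.1, 12.98 and 25.7 TPM in induced libraries. The induced mean was 0.275 of the uninduced mean, and the groups were far apart. The log2 change was -1.86 (SE 0.29, limma adjusted p 0.0049), and -1.46 after scaling (adjusted p 0.0139), and it passed without any single library.

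Of the other 4 lower members each lost its call after median-of-ratios scaling and in at least 5 of the 6 fits that leave out a library. 5033406O09Rik (chr12:111941991-111944484, minus strand), an uncharacterised RNA, was at 19.2, 16.8 and 20.2 TPM and then 9.44, 1.80 and 8.19 TPM, lowest in induced replicate 2. It met the 10 TPM minimum through the uninduced group, since its induced mean was 6.47 TPM (log2 change -1.61, SE 0.46, limma adjusted p 0.0493; -1.26 and 0.153 after scaling). Without induced replicate 2 its change was -1.01 and no single-library exclusion left it past the threshold. It also missed with a pseudocount of 0.1 (limma adjusted p 0.062) and with array weights (0.0572). AU020206 was at 41.4, 49.2 and 32.7 TPM and then 19.4, 19.9 and 25.6 TPM (-0.89, limma adjusted p 0.0349; -0.49 and 0.154 after scaling), and passed only without uninduced replicate 3 among the exclusions (adjusted p up to 0.118). Gm19590 (chr5:75833035-75835645), a neighbour of Kdr 97182 bases away, was at 59.0, 70.1 and 61.8 TPM and then 38.6, 32.8 and 40.6 TPM (-0.76, limma adjusted p 0.028; -0.36 and 0.211 after scaling). It passed in no exclusion, with adjusted p from 0.0516 to 0.104.

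Gm10076 was at 555, 527 and 433 TPM in uninduced and 343, 293 and 341 TPM in induced libraries, all lower than any uninduced value (log2 change -0.63, SE 0.15, limma adjusted p 0.025; -0.22 and 0.243 after scaling). It passed only without uninduced replicate 3 among the exclusions (adjusted p up to 0.106). RefSeq lists it as a pseudogene. Its sequence is 99.5% identical over 383 of 384 bases to Rpl41, a gene of a very short protein of the large ribosomal subunit, so reads of the pair cannot be assigned with confidence and its values are uncertain. Rpl41 was at 706, 989 and 677 TPM and then 299.6, 429 and 583 TPM, also lower on the deposited scale (-0.88, limma adjusted p 0.0417, up to 0.148 without single libraries; -0.48 and 0.228 after scaling).

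The 3 members on the list of ribosomal repeat loci lie within one stretch of chromosome 17, and Gm42418 and Gm26917 held most of the members' TPM. Gm42418 (chr17:39846958-39848788, plus strand) lies opposite a gene typed as rRNA over 99.5% of its bases, and AY036118 lies within that same gene on its strand, so that all of AY036118 is opposite Gm42418 and covers 50.4% of its bases. Gm42418 was at 12629, 12077 and 12464 TPM and then 10327, 8928 and 9044 TPM. The groups did not overlap, but the change of -0.40 (SE 0.12, limma adjusted p 0.0547) narrowly missed the threshold, was close to the median of all genes, and was 0.01 after scaling. AY036118 was at 138, 102 and 110.1 TPM and then 109.6, 94.2 and 94.3 TPM, which overlap (-0.22, limma adjusted p 0.438; 0.18 after scaling).

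Gm26917 (ENSMUSG00000097971, chr17:39843013-39846341, plus strand) lies upstream of Gm42418 on the same strand and has the highest GC content of the members, 69.1%. It was at 10971, 15468 and 13821 TPM and then 5910.0, 5748 and 6450.3 TPM. It fell by 1.14 on the log2 scale (SE 0.15, limma adjusted p 0.00236), and by 0.73 after scaling (adjusted p 0.0133), and it passed without any single library. Without the filter on low values it did not pass (limma adjusted p 0.0845). The ratio of Gm26917 to Gm42418 within a library, which the scaling between libraries does not touch, was 0.869, 1.28 and 1.11 in uninduced and 0.572, 0.644 and 0.713 in induced libraries. Those ratios do not overlap between the groups, and their difference was not tested. Of the 3 tested members of this locus list, 1 was thus lower and none higher.

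For 3 of the members introduced above with their overlapping short RNA genes, the member's row was low in libraries where the overlapping row was high. Gm28967 (named by its level) was at 1101, 70.3 and 964 TPM in uninduced and 1334, 1295 and 1519 TPM in induced libraries. Uninduced replicate 2 lay far below every other library. Scarna10, which contains it, was at 102, 994 and 90.3 TPM and then 108, 115 and 122 TPM, highest in that same library. Merging both rows, weighted by exon length, gave 1219, 1220.5 and 1069 TPM and then 1459, 1428 and 1660 TPM, and the range over libraries narrowed from 21.6-fold to 1.55-fold. The log2 change went from 1.71 (SE 0.83, limma adjusted p 0.211) to 0.37 (SE 0.13, limma adjusted p 0.0826), with groups that do not overlap in either case. Without uninduced replicate 2 the unmerged change was 0.42 (limma adjusted p 0.112). The merging was chosen after the values were seen. Here and below, merged rows were fitted on the deposited scale only, so whether they pass after scaling was not tested.

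Gm29362 (named after its values were seen) was at 606, 451 and 475 TPM and then 481, 26.9 and 19.9 TPM. Induced replicates 2 and 3 were low and induced replicate 1 lay within the uninduced range. Gm50450 was at 14.01, 5.59 and 6.53 TPM and then 11.2, 394 and 297 TPM, and Mir3068 was at 0.891, 5.17 and 4.39 TPM and then 0.0690, 0.308 and 196 TPM. Gm50450 was high in both libraries where Gm29362 was low, and Mir3068 only in induced replicate 3. Merged, the locus was at 621, 459.7 and 484 TPM and then 493, 430 and 441 TPM, and its log2 change was -0.19 (limma adjusted p 0.448) in place of -2.95 (limma adjusted p 0.0681). The range fell from 30.4-fold to 1.45-fold. Without induced replicate 1 the unmerged row has an adjusted p of 0.000127, while the merged row with all libraries kept did not pass.

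Gm50278 (likewise named after its values were seen) was at 16.1, 68.3 and 55.9 TPM and then 16.1, 55.7 and 7.23 TPM. Scarna3b was at 59.1, 0 and 0 TPM and then 65.3, 0 and 48.0 TPM, listed at 0 in exactly the libraries where Gm50278 was high. The merged locus was at 82.3, 68.3 and 55.9 TPM and then 89.3, 55.7 and 61.0 TPM (log2 change -0.02, limma adjusted p 0.972, in place of -1.02 and 0.363). For Gm12238 the partner was low throughout: Gm12238 was at 517, 294 and 309 TPM and then 358, 286 and 339 TPM, and Gm22884 at 32.5, 19.1 and 19.9 TPM and then 22.8, 19.8 and 21.1 TPM. Neither Gm12238 (-0.15, limma adjusted p 0.697) nor its merged value (-0.14, 0.697) passed. The Rmrp lncRNA row, at 18.2, 17.8 and 15.4 TPM and then 17.9, 15.4 and 15.1 TPM, was small beside the ribozyme row of the same RNA, which ran from 6870.2 to 8355 TPM. Rmrp is the RNA of RNase MRP, which cuts ribosomal RNA precursors, and the lncRNA row did not pass (-0.08, limma adjusted p 0.846).

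**Figure D3:**
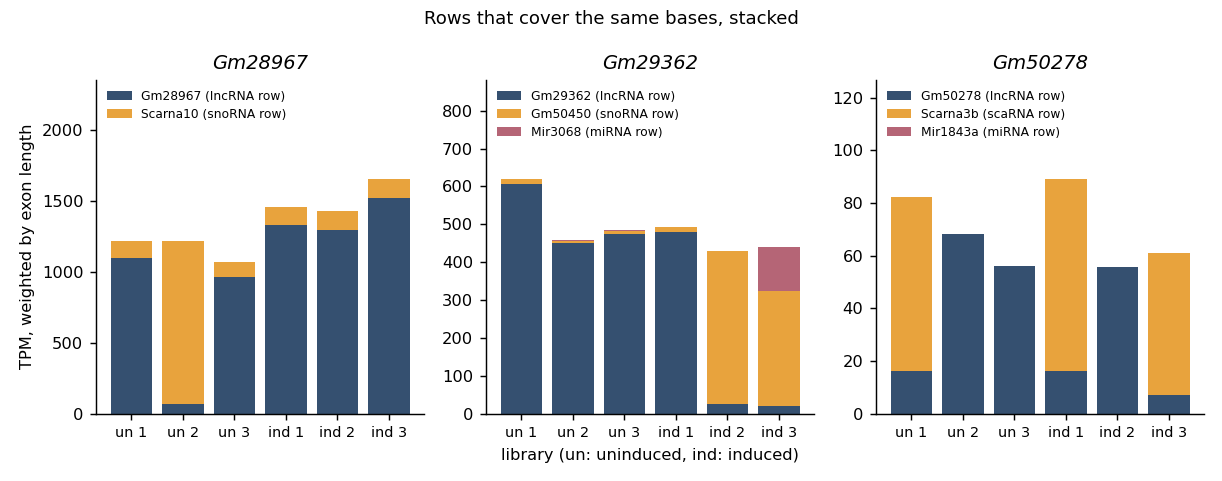
TPM of Gm28967, Gm29362 and Gm50278 (blue) stacked with the short RNA genes over the same bases (orange and red), each weighted by exon length, in the 6 libraries. The stack heights vary far less than the blue parts, which drop in uninduced replicate 2 for Gm28967 and in induced replicates 2 and 3 for Gm29362.

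Among host transcripts of snoRNAs that the rule kept, AI506816, described above, was lower. The hosts described next did not pass. 2410006H16Rik, host of Snord49a, Snord49b and Snord65, was at 249.8, 265 and 194 TPM and then 248, 168 and 215 TPM (log2 change -0.17, limma adjusted p 0.586; 0.23 after scaling). 1110038B12Rik, with Snord52, was at 147, 72.1 and 109 TPM and then 76.1, 68.2 and 85.1 TPM (-0.46, limma adjusted p 0.257; -0.06 after scaling). Zfas1, host of Snord12, was at 28.6, 46.1 and 43.4 TPM and then 30.6, 16.95 and 28.9 TPM (-0.62, limma adjusted p 0.182; -0.23 after scaling). Epb41l4aos was at 21.3, 41.3 and 61.1 TPM and then 29.9, 36.6 and 31.1 TPM (-0.22, limma adjusted p 0.711; 0.18 after scaling). Groups overlapped for all of these hosts. Of the 5 tested genes on the snoRNA host list, 0 passed, with a median change of -0.22 (0.18 after scaling).

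On the remaining role lists, the genes that passed were RNAs of enzymes. Lncpint, a p53-induced RNA, was at 38.0, 31.5 and 37.7 TPM and then 40.9, 37.5 and 37.3 TPM, with overlapping groups (log2 change 0.11, limma adjusted p 0.736). On the list of blood cell and p53 lncRNAs 0 of 6 tested genes passed, and on the microRNA host list, which holds no member, 0 of 6. Among the RNAs of enzymes 2 of 7 tested genes were higher, neither of them a member, beside 1.29% of all tested genes. After median-of-ratios scaling 3 were higher, beside 2.88% of all. Peg13, an imprinted RNA within Trappc9, was at 30.7, 26.9 and 22.4 TPM and then 32.9, 32.0 and 32.7 TPM, higher in every induced library but not past the threshold (0.29, limma adjusted p 0.393; 0.68 and 0.0548 after scaling). Rescaled to nuclear protein-coding genes instead, it passed (0.71, limma adjusted p 0.0495). Bc1, a short RNA known from neurons, was at 11.9, 21.7 and 11.6 TPM and then 20.98, 17.5 and 16.8 TPM, and its bases match parts of 7 other annotated genes at 95% identity or more, so its value is uncertain. Both RNAs were chosen after their values were seen.

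The coding gene nearest to each member was set beside it. A tested nearest coding gene was found for 38 members, within 5000 bases or overlapping for 30. Of those coding genes 0 were higher and 5 lower (Ncapd2, G3bp1, Sfpq, Oip5 and Mbd6), beside 1.29% and 10.2% of all genes. Of the 10 called members with a tested nearest coding gene, none had one that passed. This covers 1 coding gene per member, so Gimap6, Gimap4, Gimap8 and Gimap3, which were higher like Gimap1os, are not in that count. Ncapd2 fell, at 38.9, 37.0 and 39.6 TPM and then 10.004, 9.04 and 7.32 TPM (log2 change -2.02, limma adjusted p 0.00124). The merged Gm28967 locus inside it was at 0.37 and not past the threshold on the deposited scale. Merged rows were not fitted after scaling. G3bp1, a stress granule protein gene, fell by 1.35 (limma adjusted p 0.00405), with Gm12238 in its intron at -0.15. Oip5, needed to load centromere protein A, was lower on the deposited scale (-1.89, limma adjusted p 0.0292; after scaling the adjusted p was 0.0746), with Oip5os1 at -0.21. Mbd6 was at -0.90 (limma adjusted p 0.0198, but 0.161 after scaling), with the low member Gm20492 at 0.83 (adjusted p 0.27). Gm20492 was at 0.30 without uninduced replicate 3. It reached the 10 TPM minimum through the induced group, with means of 7.52 TPM uninduced and 12.9 TPM induced. Gm12940 overlaps Sfpq (-0.91) over 8.06% of its exon bases and lies opposite Zmym1 over 63.8%. It was at 27.6, 36.9 and 24.7 TPM and then 20.4, 14.001 and 13.2 TPM (-0.87, limma adjusted p 0.0549; -0.48 and 0.27 after scaling), without overlap. Gm16140, opposite Meis1, a stem cell homeobox gene, over 79.9% of its exon bases, was at 25.7, 28.0 and 22.1 TPM and then 20.1, 12.3 and 25.2 TPM (-0.43, limma adjusted p 0.351), and Meis1 at 0.29 (adjusted p 0.435). After scaling Gm16140 was at -0.04 and Meis1 at 0.69, neither past the threshold. Without single libraries Ncapd2 and G3bp1 passed each time, while the limma adjusted p of Mbd6 reached 0.0703 and that of Oip5 0.0818. The differences between a member and its neighbour were not tested themselves.

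**Figure D4:**
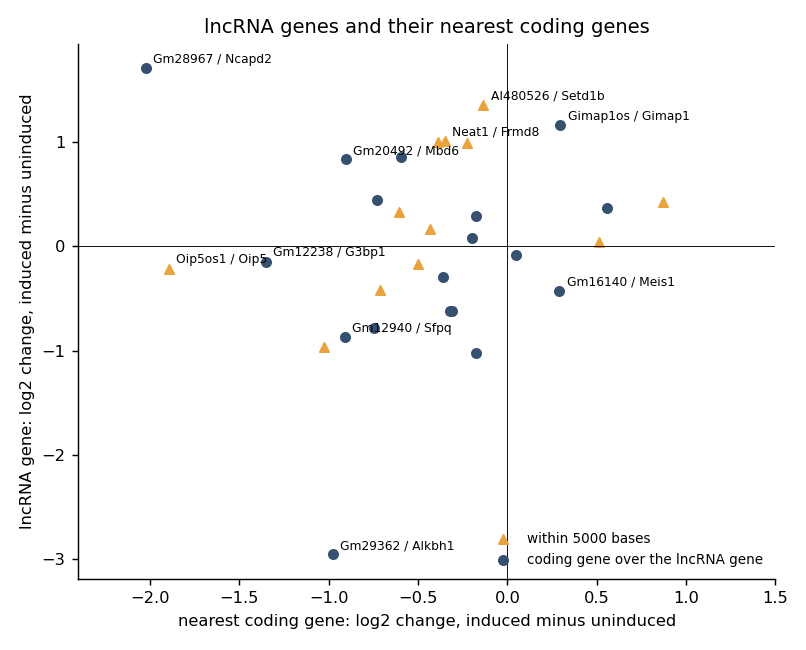
Log2 change of members that overlap or lie within 5000 bases of a tested coding gene, against the log2 change of that coding gene. Circles mark coding genes whose span overlaps that of the member, wholly or in part, and triangles those beside it. Where several overlap, a single gene is plotted, as Agrp for Gm5914 and Sfpq for Gm12940. Ncapd2 at -2.02 beside Gm28967 at 1.71 and Gimap1os at 1.16 beside Gimap1 at 0.30 are among the labelled pairs. The value of Gm28967 is unmerged and not past the threshold. It was 0.42 without uninduced replicate 2 and 0.37 with merged rows.

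The spread within a group was wide for some members. The median coefficient of variation was 21.4% in uninduced and 17.8% in induced libraries, and it exceeded 50% in 8 and 5 members. AI662270 was at 54.1, 5.81 and 66.3 TPM and then 25.4, 24.1 and 29.0 TPM, lowest in uninduced replicate 2, where the overlapping pseudogene Gm11427 was at 16.5 TPM against 0.221 to 6.79 TPM elsewhere. 5031425E22Rik, beside Kmt2e, was at 24.1, 25.8 and 1.31 TPM and then 24.5, 19.7 and 21.8 TPM, low in uninduced replicate 3. Gm41381 was at 25.97, 22.2 and 18.5 TPM and then 27.8, 33.3 and 10.4 TPM. The 3 members at the minimum were also uneven: Gm36738 ran from 1.47 to 18.6 TPM, Gm20492 from 2.61 to 18.4 TPM and 5430416N02Rik from 4.84 to 25.5 TPM. All of these had overlapping groups and none passed with all libraries. Without uninduced replicate 3, 5430416N02Rik changed by -1.54 in place of -0.97 (limma adjusted p 0.0327), and without uninduced replicate 2, AI662270 by -1.17 in place of -0.12 (0.0274). The means of 5430416N02Rik were 16.1 TPM uninduced and 6.65 TPM induced. It thus met the 10 TPM minimum through the uninduced group, and a fall is partly built into its choice. The genes of this paragraph other than those at the minimum were chosen after their values were seen.

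Of the members not yet named, Gm13012 had groups that did not overlap (10.3, 16.9 and 15.8 TPM, then 20.9, 17.4 and 20.03 TPM), with a change of 0.44 (limma adjusted p 0.299). Gm28417, Gm5914, Gm28875, 1810073O08Rik, Gm12454, 4833438C02Rik, Gm45353 and Gm20467 overlapped between groups and did not pass, with log2 changes from -0.78 (Gm5914) to 0.37 (Gm28417). Gm5914 lies opposite Ctcf over 72.5% of its exon bases, and 4833438C02Rik opposite Nfkb2 over 30.1%.

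Promoters were read because the fusion keeps the runt domain of RUNX1, which binds TGTGGT and TGCGGT. RefSeq promoter windows on GRCm38 (250 bases before to 50 after a start) matched 24 members with 29 windows. TGTGGT or TGCGGT was found on either strand in 6 windows (20.7%, 5 members), against 22.4% of all 32851 windows. CCAAT was in 44.8% of member windows and 37.4% of all, the ETS letters CCGGAAGT in 3.45% and 3.89%, and the cAMP response element TGACGTCA in 0 and 1.79%. Among the called members with a window, the motif was in Gm35551, which rose, and 5033406O09Rik, which was lower. Malat1, AI506816 and AU020206 have a window without it, and the remaining called members have no window. RefSeq gives Gm35551 3 windows, of which 1 holds TGTGGT at 2 places, 1 holds it at 1 place and 1 lacks it. The window shown is the one at the start of the M21 gene. The windows at chr17:84025970-84026269 and chr12:111944433-111944732, both on the minus strand, are printed with the motif in capitals, where ACCACA is TGTGGT on the other strand. A match is a description and no sign of binding.
Gm35551: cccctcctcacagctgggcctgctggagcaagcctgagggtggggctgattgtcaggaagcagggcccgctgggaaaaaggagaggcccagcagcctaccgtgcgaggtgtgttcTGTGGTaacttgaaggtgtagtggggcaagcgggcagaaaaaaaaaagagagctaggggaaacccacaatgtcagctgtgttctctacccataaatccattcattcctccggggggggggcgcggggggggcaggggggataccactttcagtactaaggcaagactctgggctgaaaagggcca
5033406O09Rik: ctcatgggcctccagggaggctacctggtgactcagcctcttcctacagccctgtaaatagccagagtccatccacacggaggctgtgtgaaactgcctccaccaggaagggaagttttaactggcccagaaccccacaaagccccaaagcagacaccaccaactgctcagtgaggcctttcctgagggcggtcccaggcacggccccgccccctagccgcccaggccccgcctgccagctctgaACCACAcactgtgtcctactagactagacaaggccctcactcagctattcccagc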

How the data were processed

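Total RNA of sorted stem cells was sequenced in 6 libraries, 3 uninduced and 3 induced, grouped by title. The values are TPM as the authors deposited them, in a table made with StringTie per the labels and the file headers. The submitters' processing notes also name bcl2fastq, HISAT2, DESeq2 and GRCm38, without roles or versions. The annotation release is not given in the sources used here. GC content in percent per gene was deposited in the same table. TPM keeps no depth, so sequencing depth is unknown and no counting interval can be given.

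Rows were summed per gene ID. The 13470 genes whose mean reached 1 TPM were tested, all 50 members among them. The test was limma 3.58.1 (R 4.3.3) on log2(TPM + 1), two-sided, with moderated variances that follow expression, and p-values were adjusted over all tested genes by Benjamini-Hochberg with a threshold of 0.05. Fold changes on this scale understate those of low genes. The step was tested on simulated data. Coordinates, overlaps and transcripts are from GENCODE M21 (GRCm38), where 49 members matched by ID. Copies of at least 95% identity over at least 50% of a transcript were found with blastn 2.17.0. Promoters and microRNAs are from RefSeq.

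The named members are the 6 highest, those past the threshold (up to 6 in each direction), members on role lists and those next to the minimum. Others are said to be chosen after their values were seen. The members, lists and rules were chosen with earlier results of these data known. Replicate numbers are shared between groups, but no label relates same-numbered libraries. Alternatives were pseudocounts of 0.1 and 5, other filters and member minimums, 3 scalings, array weights, no trend of variance, the replicate number as a block, single libraries left out, and, added after seeing the data, merging overlapping rows.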

Additional observations from a re-analysis of the deposited data

How the results depend on the processing

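Under other settings the number of all genes past the threshold, 1549 in the fit used, was 752 without a filter on low values, 806 after median-of-ratios scaling, 814 after quantile normalization, 809 after rescaling to nuclear protein-coding genes, 767 without a variance trend, and 573 to 1198 when single libraries were left out. The 6 higher members became 2 without a variance trend and 3 to 5 when single libraries were left out. After median-of-ratios, quantile and gene-type scaling they were 8, 8 and 9. The 6 lower members became 2 without a filter, after each of the 3 scalings and without a trend, and 2 to 5 when single libraries were left out. A member minimum of 5 TPM gave 125 members, 8 higher and 10 lower, and one of 20 TPM gave 29 members, 3 higher and 5 lower. The members' median log2 change of -0.13 turned to 0.26, 0.23 and 0.29 under the scalings in that order, and was -0.17 to -0.05 without single libraries. The difference in the members' summed TPM, -9891, was -220.7 without the 3 highest members, 467 without the 3 members listed as ribosomal repeat loci, -2891 and -2446 after median-of-ratios and gene-type rescaling, and -10630.1 to -9245 without single libraries. Median-of-ratios factors of 1.06 to 1.27 in uninduced and 0.825 to 0.942 in induced libraries raise induced against uninduced values by construction, and the cause of the other shifts was not tested.

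With the replicate block 902 of all genes passed, 5 members were higher and 4 lower. Gm10076 (limma adjusted p 0.0677), Gm19590 (0.0797), AU020206 (0.0819) and Gimap1os (0.0751) lost their calls under the block, and Gm29362 gained one (0.0342). Same-numbered libraries did not deviate together (correlations of 0.0215, -0.0152 and 0.0172), so the block adds only a number.

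For single members, the log2 change turned positive under median-of-ratios, quantile and gene-type scaling for Gm12238 (0.26, 0.16 and 0.29), Tug1 (0.087, 0.086 and 0.11), 2900097C17Rik (0.15, 0.15 and 0.18), Oip5os1 (0.17, 0.16 and 0.20), Epb41l4aos (0.18, 0.19 and 0.21), Rmrp (0.30, 0.30 and 0.33) and AY036118 (0.18, 0.19 and 0.21), and for Gm42418 under the first and last (0.012 and 0.042). It also turned for AY036118 with merged rows (0.18), for Gm12238 without uninduced replicate 1 (range over single libraries left out -0.29 to 0.11), for Tug1 without induced replicate 1 (-0.55 to 0.0052) and for Epb41l4aos without uninduced replicate 3 (-0.62 to 0.12). None of these members was past the threshold in the fit used. Over 29 named members and the alternatives that keep all libraries, 289 values kept direction and side of the threshold, 32 fell short of it, 3 newly passed it and 24 turned. The 3 were Gm42418 at a mean of at least 5 TPM (limma adjusted p 0.0425) and with array weights (0.0493), and Gm29362 under the block. Of the 12 called members, BC018473, Gm35551 and AI506816 kept their calls in every alternative fit. Gm35551 is no member, however, at a minimum of 20 TPM or of 10 TPM in each group mean. Without the low-value filter Gm10076 (0.0686), AU020206 (0.0741) and 5033406O09Rik (0.173) also missed, and without a variance trend these (0.142, 0.0868 and 0.0988) and Gm19590 (0.093). Depth is unknown, so a member near 10 TPM may rest on few reads.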
